A study of Mus musculus with 2 samples.

Results

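Natural killer (NK) cells were sought among single cells of mouse lung carcinoma tumours by a rule on marker genes. A barcode had to hold at least 500 genes and at most 20% mitochondrial UMIs (unique molecular identifiers, each counting 1 captured RNA molecule). It needed at least 2 UMIs summed over Ncr1, Klrb1c, Klre1 and Eomes and fewer than 3 over the T cell genes Cd3d, Cd3e, Cd3g, Trac and Trbc2. The complement genes C1qa, C1qb and C1qc had to stay under 0.3% of its UMIs and Lyz2 under 0.2%. The rule picked 86 of 13590 barcodes that passed the gene and mitochondrial limits, 24 of 6380 in the control library and 62 of 7210 in the treated one. It was written with results of these data known, so the 4 marker genes and the T cell genes describe the members and support nothing.

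The tumours grew under the skin of C57BL/6 mice, labelled wild type. They came from CMT167R, labelled as anti-PD1 resistant, a line derived by its name from the mouse lung carcinoma CMT167. Control mice were given solvent, and treated mice a compound labelled only PKCi at 3 mg/kg each day into the peritoneum. Tumours were taken once control tumours measured 400 mm3 and the treated ones differed from them in volume, cells were freed with enzymes, filtered at 70 µm and, as far as stated, not sorted. Each treatment is represented by 1 library, the labels do not give the age of the mice or how many were pooled, and no difference between the libraries has a replicate check. The series title names XIAP, PKC signalling and resistance to immunotherapy, and the comparison asks how NK cells of the treated tumour differed from those of the control.

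NK cells are innate lymphocytes that kill stressed or transformed cells without a rearranged antigen receptor. Activating receptors signal through adaptors such as DAP12 (Tyrobp) and FcRγ (Fcer1g), and inhibitory receptors for MHC class I, in mice mostly the Ly49 family encoded by the Klra genes, restrain them. Triggered cells release perforin and granzymes from granules and secrete interferon-γ and chemokines such as XCL1, which attracts cross-presenting dendritic cells.

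The rule mixed kinds of barcode, and the label held for a part of them. Of the 86 members, 15 control and 23 PKCi barcodes had no UMI of Ptprc, which encodes the leukocyte marker CD45. These barcodes had at least 5 and 3 UMIs of the epithelial keratin gene Krt8, median depths of 60397 and 52214 UMIs and no Xist UMI, and 15 and 22 of them held only 1 of the 4 marker genes, mostly Eomes alone (8 and 18) or Klrb1c alone (6 and 3). Another 2 control members and 1 PKCi member held Ptprc together with 13 to 15 Krt8 UMIs, and 1 of them was among the 1.74% of control barcodes that Scrublet called doublets (1.83% in the PKCi library). The remaining 7 control and 38 PKCi members carried Ptprc, under 5 Krt8 UMIs and no doublet call, and 5 and 27 of them held at least 3 of the 4 marker genes. They are called NK-like cells here, and the others are called by the rule only. This division was made after the values were seen.

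**Figure D1:**
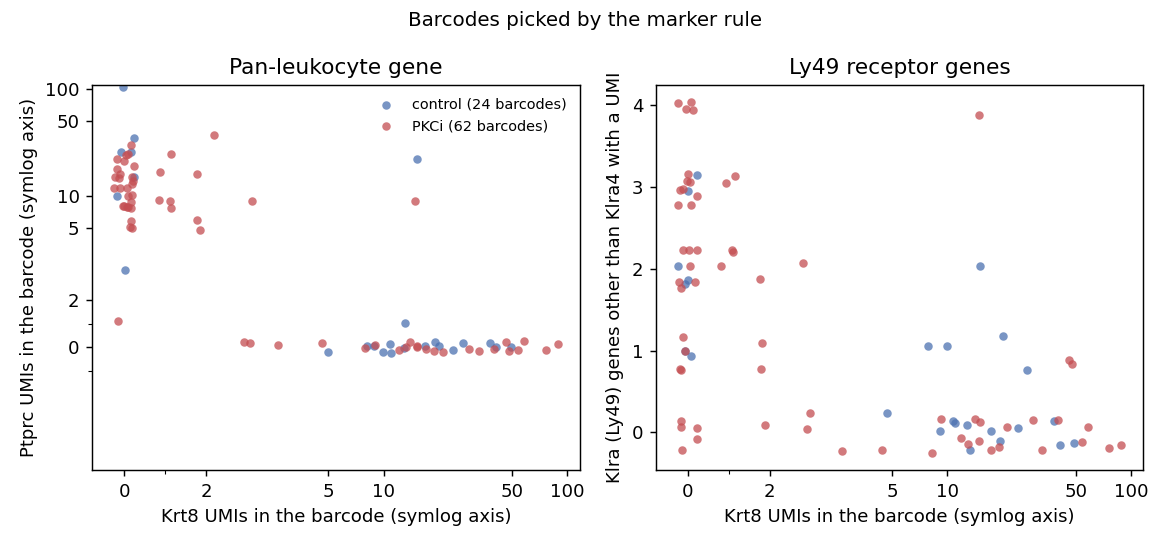
Krt8 UMIs (x, linear to 5 and logarithmic beyond) of the 86 barcodes picked by the rule, against Ptprc UMIs (left, same scaling) and the number of Klra genes other than Klra4 with a UMI (right); points are barcodes, moved slightly at random. The 45 NK-like cells lie at 3 or fewer Krt8 UMIs with up to 4 of these Klra genes, and the 38 barcodes without Ptprc all have 3 or more Krt8 UMIs and at most 1 of them.

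The 7 control NK-like cells held 117197 UMIs, with a median of 9340 per cell, and the 38 PKCi cells 426022, with a median of 10385. A single control cell with 47706 UMIs supplied 40.7% of the control sum. Part of the limit on T cell genes came from Trbc2: of 24 control and 39 PKCi barcodes that met the NK limit but exceeded the T limit, 12 and 11 had under 3 UMIs over the other 4 T cell genes. NK cells can transcribe T cell receptor constant regions without a rearranged receptor. A wider set was therefore formed, also after the data were seen, with the limit on Cd3d, Cd3e, Cd3g and Trac alone, Ptprc, under 5 Krt8 UMIs and no doublet call. It holds the NK-like cells and 12 more control and 9 more PKCi cells, 19 and 47 in all, with 361398 and 534708 UMIs and medians of 17219 and 9416 per cell. Each level below is the sum of a gene's UMIs over the cells of a set per 1e6 UMIs (CPM), with exact Poisson intervals that cover counting error only. It is given for the NK-like cells and beside it for the wider set, in which no control cell holds more than 13.2% of the sum. The make-up of the wider set differs between the libraries. The added cells hold 244201 of its 361398 control UMIs and 108686 of its 534708 PKCi UMIs, with medians of 18038.5 and 8083 per cell. The part of this difference in the wider set's ratios was not tested.

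Just outside the marker limit, 176 control and 228 PKCi barcodes had 1 marker UMI, of which 12 and 12 had Ptprc. Just inside, 8 and 23 barcodes had 2 marker UMIs, of which 1 and 2 had Ptprc, while 16 and 39 had 3 or more, of which 8 and 37 had Ptprc. At the T limit, 23 control and 49 PKCi members had 0 UMIs, none and 9 had 1, and 1 and 4 had 2. The limit on C1q and Lyz2 left out 0 control barcodes and 1 PKCi barcode. The libraries shared 20 barcode sequences, 1 of them a PKCi member, and no member was in both.

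Members made up 0.376% of control barcodes (95% interval 0.241 to 0.559) and 0.860% of PKCi barcodes (0.660 to 1.10), a ratio of 2.29 (1.41 to 3.83). NK-like cells made up 0.110% (0.0441 to 0.226) and 0.527% (0.373 to 0.723), a ratio of 4.80 (2.12 to 12.7). In the wider set the shares were 0.298% (0.179 to 0.465) and 0.652% (0.479 to 0.866), a ratio of 2.19 (1.26 to 3.95), and among barcodes with Ptprc 1.52% and 3.02%, a ratio of 1.99 (1.15 to 3.59). The gap thus shrank from 4.80 to 2.19 when Trbc2 was left out of the T limit. T cells with at least 3 UMIs over the same 4 genes made up 0.956% and 1.36%, a ratio of 1.42 (1.02 to 1.99). They were held to the wider set's limits on Ptprc, Krt8, doublet calls, C1q and Lyz2. Loss or gain of cells before capture could not be told apart from a difference in the tumours with 1 library each.

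The defining markers were found in NK-like cells of both libraries. Ncr1, which encodes the activating receptor NKp46, was at 179 CPM in control and 204 CPM in PKCi NK-like cells, and had a UMI in 5 of 7 and 27 of 38 cells. Klrb1c, the NK1.1 antigen, was at 222 and 197 CPM, Klre1 at 307 and 322 CPM and the T-box factor gene Eomes at 196 and 117 CPM. Of the markers the rule did not use, perforin (Prf1) had a UMI in 7 of 7 and 35 of 38 cells and Gzma in 5 and 25. In carcinoma barcodes (no Ptprc, at least 2 Krt8 UMIs), which should lack both, Prf1 had a UMI in 0.686% and 0.478% and Gzma in 0.576% and 0.894%, at greater depth (medians of 38573 and 36182.5 UMIs). Of T cell genes outside the rule, Cd4, Cd8a, Cd8b1, Cd5, Themis and Foxp3 had no UMI in any NK-like cell, and Cd6 had 0 and 1. Trbc1, in contrast, was found in all 7 control cells and 34 of 38 PKCi cells. The rule capped its 5 T cell genes. Of these Cd3e had no UMI, but 1 of 7 control and 11 of 38 PKCi cells had a UMI of another.

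Of the adaptor genes through which activating receptors signal, Tyrobp differed little, while the sums of Fcer1g were lower in the PKCi library. Tyrobp was detected in all 45 NK-like cells, at 1305 CPM (1107 to 1529.5) in control and 1277 CPM (1172 to 1389) in PKCi cells, a ratio of 0.978. Fcer1g was also found in all of them, at 2338 and 1420.1 CPM in NK-like cells and 1829 and 1423 CPM in the wider set. Its UMIs in the 7 control NK-like cells were 6, 10, 13, 14, 35, 41 and 155. The NKG2D partner gene Hcst (DAP10) was at 179.9 and 140.3 CPM in the wider set, and Klrk1, which encodes NKG2D, at 302 and 316 CPM. Klrd1 (CD94) was at 578 and 555 CPM. The inhibitory NKG2A gene Klrc1, whose product pairs with CD94, was at 128 and 51.6 CPM in NK-like cells and 119 and 44.9 CPM in the wider set, a ratio of 0.377 (0.219 to 0.636), and was detected in 10 of 19 and 13 of 47 cells.

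To set genes of any list apart between the libraries, a rule of size was used in place of a test. A gene was called when its PKCi/control ratio was at least 2, or at most 0.5, in the NK-like cells, in the wider set with a 95% counting interval that left out 1, and in the wider set without the control cell of most UMIs. Of 2714 genes with at least 30 UMIs in both sets, 46 (1.69%) were called higher and 19 (0.7%) lower in PKCi cells. With the 2-fold limit alone, 288 of 2719 genes (10.6%) were higher and 95 (3.49%) lower in NK-like cells, 181 of 4054 (4.46%) higher and 99 (2.44%) lower in the wider set, and 302 of 8672 (3.48%) higher and 197 (2.27%) lower over all 86 members. These calls describe 2 libraries, not the treatment.

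Genes of the Ly49 receptors differed between the libraries in both directions. Klra8, which encodes the activating receptor Ly49H, had 5 UMIs in control and 130 in PKCi NK-like cells, 42.7 CPM (13.9 to 99.6) and 305 CPM (255 to 362). In the wider set its levels were 116 and 281 CPM, with a ratio of 2.41 (1.70 to 3.49) and a UMI in 9 of 19 and 26 of 47 cells. After each cell was thinned to 3000 UMIs, which left out 1 cell per library, those shares were 24.5% and 41.8%, while a UMI was found in 0 of 4517 unthinned control carcinoma barcodes, which allows a share of up to 0.0664%, and in 0.229% of PKCi ones. Klra9 was at 55.3 and 148 CPM in the wider set, a ratio of 2.67 (1.62 to 4.61). Klra3, the inhibitory Ly49C, had no UMI in control and 31 in PKCi NK-like cells, at least 2.84-fold higher against a floor of 3 counts, and in the wider set 3 and 41 UMIs, a ratio of 9.24 (2.95 to 46.6). Other members went the other way or stayed level: Klra7 (Ly49G) was at 288 and 374 CPM, Klra4 (Ly49D) at 268 and 333 CPM, Klra1 (Ly49A) at 105 and 37.4 CPM and Klra5 at 88.5 and 22.4 CPM. Of the 11 inhibitory receptor genes tested, 2 were called higher (Klra9, Klra3) and 1 lower (Klrc1), and of 5 activating ones 1 was called higher (Klra8). The Klra genes lie together on chromosome 6 (GRCm38, Klra8 at chr6:130115226-130129898, minus strand) and are near-identical in places, so reads may be split between them and these levels are uncertain. Klra4 also had a UMI in 52.3% and 42.4% of carcinoma barcodes, at 29.9 and 22.8 CPM.

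Granule genes were the group with the most members lower in the PKCi library. Of 18 granule genes tested, 5 (Prf1, Gzmb, Gzme, Gzmf and Gzmg) were called lower and none higher, beside 0.7% and 1.69% over all genes. Prf1, which encodes the pore-forming protein perforin, had 1, 1, 2, 14, 15, 38 and 139 UMIs in the 7 control NK-like cells. In the 38 PKCi cells its UMIs ran from 0 through a median of 4 to 45. The summed level was 1792 CPM (1558 to 2051) in control and 636 CPM (563 to 717) in PKCi cells. In the wider set it ran from 108 through 1238 to 3184 CPM per control cell and from 0 through 402 to 2004 CPM per PKCi cell, and the sums were 1594 and 696 CPM, 2.29 times lower in PKCi cells. The ranges of single cells overlapped widely, and without the deepest control cell the wider set's ratio was 0.499, at the limit of the rule.

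Granzyme B (Gzmb), the main caspase-activating granzyme, followed the same order in its sums, with a wider spread. Its UMIs were 0, 0, 1, 1, 8, 63 and 349 in the 7 control NK-like cells, so that 82.7% came from 1 cell, and 0, 7 and 109 (lowest, median, highest) in PKCi cells. In the wider set its level was 4817 CPM (4594 to 5049) in control and 1592 CPM (1486 to 1702) in PKCi cells, 3.03 times lower, with 17 of 19 and 41 of 47 cells positive. The median cell held 3659 CPM in control and 689 CPM in PKCi. Without the deepest control cell the NK-like ratio turned to a log2 of 0.26, while the wider set kept -1.48. In T cells Gzmb was also lower in the PKCi library (1558 and 505 CPM), as was Prf1 (560.1 and 364 CPM). In the T cells with a Cd8a or Cd8b1 UMI, Gzmb was at 729.6 and 702 CPM and Prf1 at 348 and 582 CPM.

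**Figure D2:**
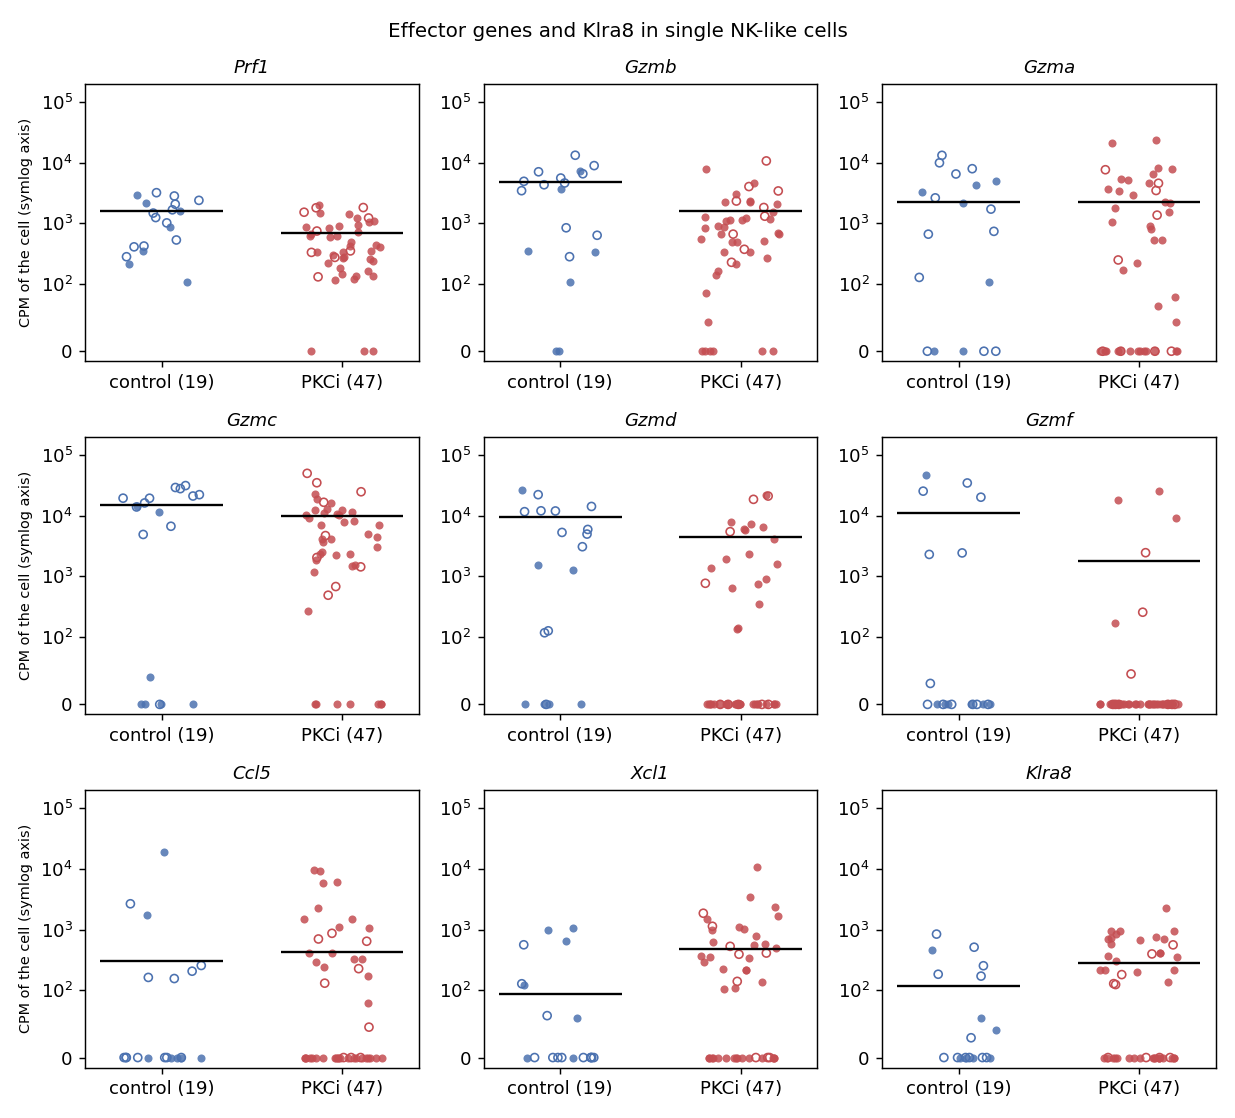
CPM of 9 genes in each cell of the wider set by library (y, linear to 100 and logarithmic beyond); filled points are the NK-like members of the rule, open points the cells added when Trbc2 was left out, and the line is the level of the sum. Prf1 and Gzmb sums lie lower in PKCi cells (696 and 1592 CPM against 1594 and 4817), the Xcl1 sum higher (479 against 94.1), and single cells of the libraries overlap in every panel.

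Granzymes B to G lie in 1 cluster on the minus strand of chromosome 14, and their promoters are shown because several of these genes were lower together in the PKCi library. The windows run from 250 to 21 bases before the RefSeq start (GRCm38.p6), on the strand of the gene, and stop there to leave out transcribed bases. Capitals mark RUNX cores (TGTGGT or ACCACA) and the AP-1 site TGANTCA on either strand. Gzmb lies at chr14:56262355-56262584, Gzmc at chr14:56234678-56234907, Gzmd at chr14:56132614-56132843 and Gzmg at chr14:56159600-56159829.
Gzmb: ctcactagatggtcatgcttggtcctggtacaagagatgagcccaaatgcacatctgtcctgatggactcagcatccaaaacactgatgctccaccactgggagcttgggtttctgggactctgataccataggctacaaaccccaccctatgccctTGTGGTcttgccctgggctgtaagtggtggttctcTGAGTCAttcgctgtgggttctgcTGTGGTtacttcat
Gzmc: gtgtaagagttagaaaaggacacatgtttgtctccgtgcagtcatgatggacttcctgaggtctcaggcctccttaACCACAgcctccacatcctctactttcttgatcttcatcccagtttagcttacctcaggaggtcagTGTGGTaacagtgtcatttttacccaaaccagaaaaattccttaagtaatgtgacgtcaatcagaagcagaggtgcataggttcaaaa
Gzmd: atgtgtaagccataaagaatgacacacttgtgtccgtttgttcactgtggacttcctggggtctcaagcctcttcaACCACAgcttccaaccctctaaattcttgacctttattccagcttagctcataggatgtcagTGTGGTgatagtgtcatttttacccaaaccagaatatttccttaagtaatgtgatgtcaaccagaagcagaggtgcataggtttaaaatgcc
Gzmg: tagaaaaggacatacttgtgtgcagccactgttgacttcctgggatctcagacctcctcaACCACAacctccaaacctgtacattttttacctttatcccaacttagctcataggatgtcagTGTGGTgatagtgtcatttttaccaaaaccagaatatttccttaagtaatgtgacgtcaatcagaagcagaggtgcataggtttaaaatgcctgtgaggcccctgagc
Each of the 6 windows, those of Gzme and Gzmf included, held 2 RUNX cores. At least 1 core was found in 13.2% of 32851 such windows of all genes, and the share with 2 was not counted. The window of Prf1 held 1. The AP-1 letters were found once, in Gzmb, and are in 6.34% of all windows, and the T-box half-site GTGTGA was found in none of the 6 and in 11.4% of all. The window of Gzmb shared 47.3 to 51.9% of aligned bases with the other 5. Those 5 shared 70.0 to 94.8% with one another (Gzmd and Gzme 94.8%, Gzmf and Gzmg 81.7%), so their matches are not independent. A match is a description of letters, not a bound site.

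The other granzymes of the cluster were expressed by fewer cells at very high levels. Gzmc had 0, 0, 0, 0, 1, 199 and 682 UMIs in the 7 control NK-like cells, and 31 of 38 PKCi cells were positive. Its sum was 7526 and 7769.6 CPM in NK-like cells, but 15097 and 9774 CPM in the wider set. Gzmd had 0, 0, 0, 0, 22, 37 and 1287 UMIs in the 7 control NK-like cells, so that 95.6% of them came from 1 cell. In the wider set 14 of 19 control and 21 of 47 PKCi cells were positive, and after thinning 70.2% and 41.7%, at 9621 and 4406 CPM. Gzme was at 4795 and 1562 CPM, Gzmf at 11195 and 1789.8 CPM and Gzmg at 11967 and 1612 CPM, with 7 and 7 cells positive for Gzmf. In PKCi cells 60.1% of the Gzmf UMIs and 55.0% of the Gzmg UMIs also came from 1 cell. The deepest control cell held 54.5% of the control Gzmf UMIs and 61.0% of those of Gzmg. Without it the NK-like ratios of Gzme, Gzmf and Gzmg reversed, to log2 1.74, 8.26 and 6.10, and those of the wider set stayed at -1.04, -1.71 and -1.74. Among the control NK-like cells that cell held all 2206 Gzmf UMIs and 2639 of 2640 Gzmg UMIs. The values 8.26 and 6.10 thus rest on control sums near 0, to which 0.5 was added, and are not measured folds. Gzmd, Gzme, Gzmf and Gzmg are close copies, so reads may be split among them. In T cells of the control and PKCi library Gzmd was at 2971 and 628 CPM and Gzmg at 6275 and 15.3 CPM. The order did not hold in the T cells with a Cd8a or Cd8b1 UMI, where Gzmd was at 898 and 1137 CPM, Gzmf at 1661 and 3126 CPM and Gzmg at 0 and 13.3 CPM. A minority of T cells carried these sums: after thinning, 12.5% of control and 11.6% of PKCi T cells had a Gzmf UMI, and fewer had one of Gzmg. Among the T cells, 2 control and 3 PKCi barcodes held at least 3 of the 4 NK marker genes. Their part in the T cell sums of these genes, Gzmb and Prf1 was not tested, so those sums may not describe T cells in general.

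Gzma, a granzyme of another cluster on chromosome 13, did not follow Gzmb. It had 0, 0, 1, 14, 20, 21 and 73 UMIs in the 7 control NK-like cells, and 1101 and 2282 CPM in the sums, but 2203 (2052 to 2361) and 2216 CPM (2092 to 2346) in the wider set, a ratio of 1.01. 14 of 19 and 30 of 47 cells were positive. Nkg7, a granule membrane protein, was near level at 1289 and 1017 CPM, as were Ctsw (260.1 and 230.0 CPM) and the granule proteoglycan gene Srgn (1469 and 1077 CPM). Serpinb9b, of a serpin family that includes granzyme inhibitors, was at 291 and 65.5 CPM in the wider set and at 17.1 and 44.6 CPM in NK-like cells, where the order was the reverse. The death ligand genes Fasl (38.7 and 65.5 CPM) and Tnfsf10 (8 and 2 UMIs) were low, and Gzmk had no UMI.

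Among secreted factors, Xcl1 stood out. Its UMIs in the 7 control NK-like cells were 0, 0, 1, 3, 3, 6 and 9, and in the 38 PKCi cells 0, 1.5 and 81 (lowest, median, highest). The level was 188 and 516 CPM in NK-like cells, and 94.1 (65.2 to 131) and 479 CPM (422 to 541) in the wider set, a ratio of 5.09 (3.55 to 7.51). After thinning, 20.8% of control and 47.8% of PKCi cells of the wider set had a UMI, against 0.0221% and 0.291% of unthinned carcinoma barcodes. In NK-like cells the thinned shares were closer, 39.6% and 46.5%. Without the deepest control cell the NK-like log2 ratio was 0.68, under the 2-fold limit. In the wider set 31.6% of the PKCi UMIs came from 1 cell. T cells showed the same order at lower levels, 24.9 and 126 CPM. Ccl5, which attracts T cells and monocytes, was carried by few cells, 7 of 19 and 23 of 47, at 302 and 434 CPM. Ccl4 was at 99.6 and 202 CPM, with 48.1% of the PKCi UMIs in 1 cell, and Ccl3 at 6 and 15 UMIs. Ifng, the interferon-γ gene, had 20 and 33 UMIs, in 6 and 11 cells. Tgfb1 was broadly expressed, at 274 and 475 CPM, a ratio of 1.73 (1.37 to 2.21) in the wider set and 2.20 in NK-like cells. The myeloid chemokine genes Cxcl1, Cxcl2, Ccl2 and Ccl6 and the arginase gene Arg1 also passed the rule of size. Between 49.0 and 75.8% of the PKCi UMIs of each of these 5 genes lay in 1 cell, and their levels were 0.940 to 18.1% of those in the cell class that had most, and the part of RNA from other cells was not tested.

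Among receptor genes for interleukins, Il2rb, the shared β chain for interleukins 2 and 15, was at 783 and 699 CPM and detected in 19 of 19 and 46 of 47 cells, and Il2rg was at 263 and 189 CPM. Il12rb2, a chain of the interleukin 12 receptor, was at 102 and 286 CPM in NK-like cells and 155 and 333 CPM in the wider set, a ratio of 2.15 (1.58 to 2.96). None of the 11 cytokine receptor genes tested was called. Il21r was at 49.8 and 108 CPM and Il18rap at 44.3 and 89.8 CPM. Of 14 genes of STAT signalling and its feedback, none was called, and of 17 genes of proximal receptor signalling none was.

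Of 22 transcription factor genes tested 1 was called. Eomes was at 127 and 114 CPM in the wider set, Irf8 at 985 and 905 CPM, Runx3 at 667 and 690.1 CPM and Id2 at 747 and 554 CPM. Tbx21 (T-bet) was at 51.2 and 143 CPM in NK-like cells and 69.2 and 137 CPM in the wider set, a ratio of 1.97 (1.24 to 3.24). Rora was the factor called higher, with 4 UMIs in 2 control cells and 44 in 9 PKCi cells. Zfp683 (Hobit) and Irf4 had no UMI in NK-like cells.

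Genes that mark type 1 innate lymphoid cells, relatives of NK cells that stay in tissue, gave a mixed picture at low counts. Cxcr6 had no UMI in NK-like cells, Il7r had 0 in control and 5 in PKCi cells and Cd200r1 0 and 1. The integrin genes Itga1 (CD49a) and Itga2 (CD49b), used to tell such cells from NK cells, were at 83.0 and 26.2 CPM and 13.8 and 22.4 CPM in the wider set. Cd69, an early activation and retention marker, was called lower, at 188 and 91.5 CPM in NK-like cells and 177 and 84.2 CPM in the wider set, a ratio of 0.475 (0.317 to 0.707), while in T cells it was at 204 and 286 CPM. As a mean over the cells of the wider set its log2 ratio was -0.28, under the 2-fold limit. Itgax (CD11c) was called higher, with 4 UMIs in 4 control cells and 36 in 20 PKCi cells. Tmem176b was called higher as well, but 52.8% of its PKCi UMIs lay in 1 cell. The maturation markers S1pr5 and Itgam had 0 and 0 and 0 and 7 UMIs in NK-like cells, and Kit was at 111 and 140.3 CPM in the wider set.

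**Figure D3:**
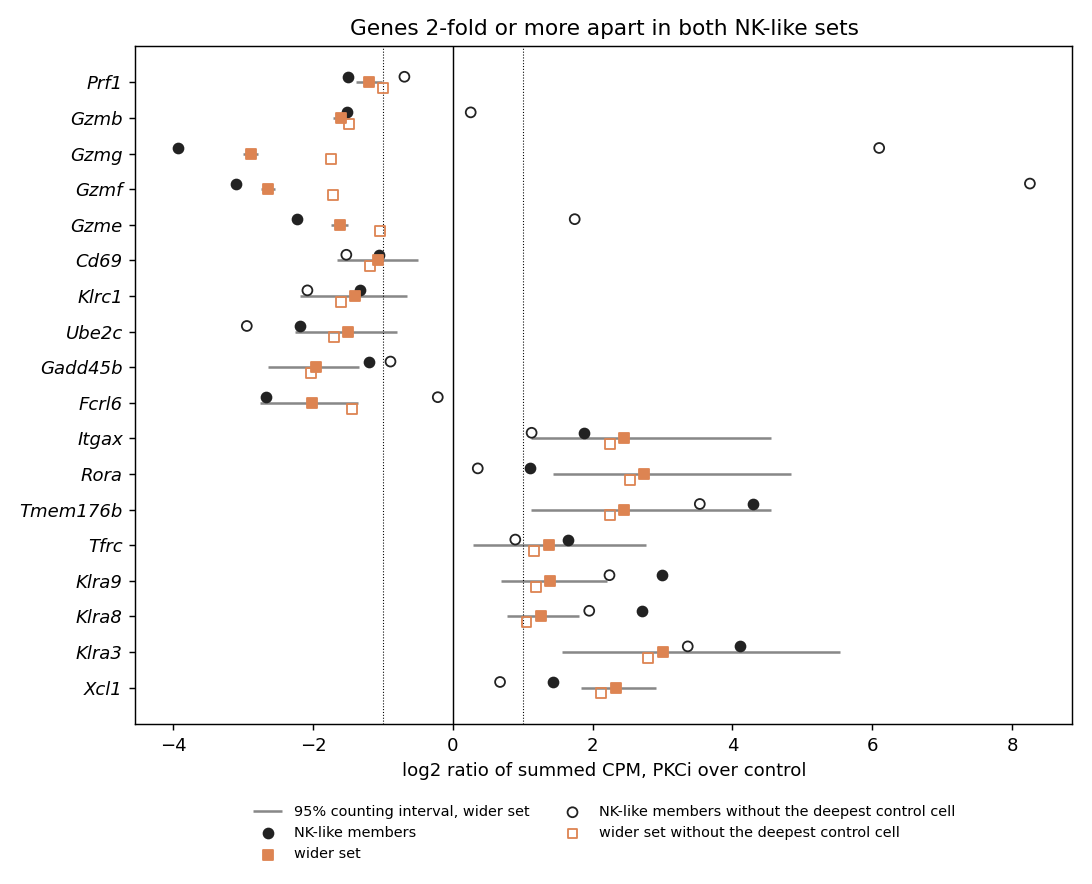
log2 ratio of summed CPM, PKCi over control, for 18 genes that passed the rule of size; circles are the NK-like cells, squares the wider set, open symbols the same sets without the control cell of most UMIs, and the bar is the 95% counting interval of the wider set. A count of 0.5 was added to each sum. All squares keep their side of 0, and the open circles of Gzmb, Gzme, Gzmf and Gzmg lie above 0. For Gzmf and Gzmg these circles rest on control sums near 0.

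Genes outside these groups were called as well. Among the higher ones, Ust, a sulfotransferase gene, had 3 and 60 UMIs in the wider set, a ratio of 13.5 (4.41 to 67.4), and Eya1, which encodes a transcriptional coactivator, 4 and 46 UMIs (3.16-fold as a mean over cells). Nr3c1, the glucocorticoid receptor gene, was at 38.7 and 123 CPM and Zfp36l2, which encodes an RNA-binding protein that promotes mRNA decay, at 160.5 and 395 CPM. Tfrc, the transferrin receptor gene, had 8 and 32 UMIs. Igfbp4 had 70.1% of its PKCi UMIs in 1 cell. Among the lower ones, Fcrl6 was at 191 and 46.8 CPM, with 42.0% of its control UMIs in 1 cell, and the stress gene Gadd45b at 213 and 54.2 CPM, with 70.1% in 1 cell. Srgap3, which encodes a regulator of Rac, was at 393 and 172 CPM and the growth factor gene Pdgfa at 196 and 74.8 CPM.

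Over all 86 members, the levels mixed NK-like cells with the Krt8-rich barcodes. The 12 genes with the lowest ratios, among them Lnx1, Asic4 and Fbxo47, each had 57.1 to 100% of their control UMIs in 1 barcode. Of the 12 with the highest ratios, Klra9, Klra8, Il21r and Zap70 are lymphocyte genes, and Sele, with 97.0% of its PKCi UMIs in 1 barcode, is known from endothelium. The share of NK-like cells among the members also differed, 7 of 24 in control and 38 of 62 in PKCi, and its part in these ratios was not tested.

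In most of the other groups no gene was called. None of 10 checkpoint and costimulation genes tested was called. The costimulatory receptor gene Tnfrsf9 (4-1BB) was at 1082 and 765 CPM, Ctla4 at 191 and 209 CPM, Tigit had 2 and 10 UMIs, and Pdcd1, which encodes PD-1, 3 and 0. Of the PKC isoform genes 6 were tested and none was called. Prkch (PKCη) was at 271 and 281 CPM, Prkca at 74.7 and 140.3 CPM, Prkcq at 52.6 and 87.9 CPM and Prkcb at 55.3 and 86.0 CPM, and Prkcz had no UMI. None of 18 MHC class I genes was called, with B2m at 1693 and 1876 CPM and H2-K1 at 1065 and 1249 CPM. Xiap, the apoptosis inhibitor gene of the series title, was at 55.3 and 71.1 CPM. The early response genes Fos (127 and 241 CPM), Fosb (127 and 286 CPM) and Junb (664 and 1012 CPM), which dissociation can raise, were higher in PKCi cells of the wider set. Of 21 early response genes 7 were at least 2-fold higher in NK-like cells and 3 in the wider set, beside 10.6% and 4.46% over all genes, and none was lower in either. Ier3 was called higher, with 65.2% of its PKCi UMIs in 1 cell of the wider set. The part of these genes in the other differences was not tested. Cycling genes were found in both libraries. Mki67 had a UMI in 5 of 19 and 12 of 47 cells, and Ube2c, called lower, was at 138 and 48.6 CPM with 48% of its control UMIs in 1 cell. At equal depth 22.2% of 18 control and 23.9% of 46 PKCi cells held at least 3 G2/M genes (before thinning 68.4% and 66.0%). At least 3 S phase genes were found in 44.4% (21.5 to 69.2) and 28.3% (16 to 43.5), and before thinning in 94.7% and 78.7%. None of 9 maturation, 9 dissociation stress, 2 interferon response, 5 S phase, 16 glycolysis and hypoxia and 4 apoptosis inhibitor genes tested was called.

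T cells are the lymphocytes that share most of their effector genes with NK cells, and the comparison shows what set the NK-like cells apart within each library. A gene was counted when it differed by 2-fold or more in the same direction in both libraries. Of 6158 genes, 109 (1.77%) were higher and 373 (6.06%) lower in NK-like cells than in T cells, and of 6693 genes 136 (2.03%) and 393 (5.87%) in the wider set. Over all 86 members, against T cells defined with Trbc2 as well, 251 of 10161 genes (2.47%) were higher and 752 (7.4%) lower. The classes were cut by genes of the same cells, so these counts are a description.

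Receptor partners split by lineage. Of 10 adaptor genes 4 were higher and 2 lower than in T cells. Tyrobp was at 1305 and 1277 CPM in NK-like cells of the control and PKCi library, and at 351 and 112 CPM in T cells. Fcer1g was at 547 and 66.3 CPM in T cells, and Sh2d1b1 (EAT-2), the adaptor of SLAM receptors in NK cells, at 34.1 and 44.6 CPM against 13.6 and 3.40. The T cell adaptor gene Lat was lower, with log2 ratios of -3.51 and -4.31, and so was Cd247, the ζ chain gene, with -2.39 and -1.69. Plcg2 was higher (59.7 and 54.0 CPM against 6.8 and 3.40), as was the adaptor gene Clnk (log2 3.34 and 4.51). The inhibitory receptor genes Klrb1b, Klrb1a, Klri2, Klra9, Klra7 and Klra1 were higher, 6 of 12.

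Of 23 granule genes tested 5 (Gzmb, Gzmc, Gzmd, Gzme, Gzmg) were higher than in T cells in NK-like cells and 3 (Gzmb, Gzmc, Gzmd) in the wider set, where Gzmc had log2 ratios of 2.43 and 3.33. Xcl1 was higher than in T cells in both libraries (log2 1.87 and 1.92 in the wider set), whereas Ccl5, Ccl4, Ltb, Areg and Csf2 were lower. Of 20 checkpoint and costimulation genes 11 were lower in NK-like cells and 7 in the wider set, and none was higher, with Pdcd1 at 0 in NK-like cells against 141 and 167 CPM in T cells, and Tnfrsf4 at 0 against 524 and 527 CPM. The carbonic anhydrase gene Car2 (461 and 333 CPM against 63.5 and 27.2) and the transcription factor gene Mef2c (68.3 and 63.4 CPM against 0 and 5.10) were among the 12 genes with the largest ratios.

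Most genes of the type I interferon response were lower than in T cells. Of 19 such genes 14 were lower in NK-like cells in both libraries and none was higher, and in the wider set 17 of 21 were lower, beside 6.06% and 5.87% over all genes. Ifi27l2a was at 0 and 9.39 CPM in NK-like cells and 599 and 521 CPM in T cells. Isg15 was at 51.2 and 91.5 CPM against 279 and 410.0, Ifit3 at 0 and 2.35 CPM against 34 and 98.7, and Ly6a at 25.6 and 11.7 CPM against 388 and 235. T cells were shallower (medians of 4967 and 4728.5 UMIs per cell), and 2 control and 3 PKCi T cells held at least 3 of the 4 NK marker genes.

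**Figure D4:**
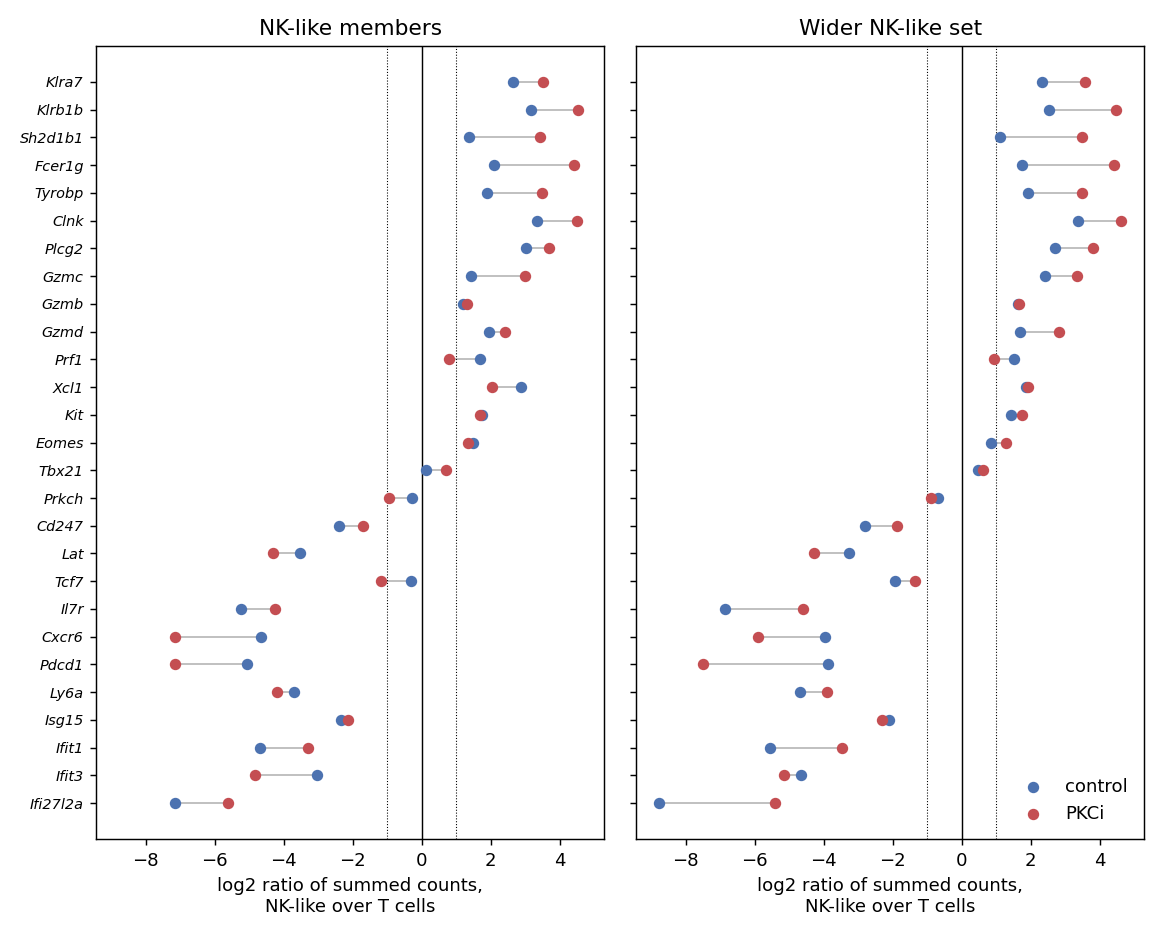
log2 ratio of summed counts, NK-like over T cells, for 27 genes in the NK-like cells (left) and the wider set (right); points are the 2 libraries, joined by a line, with 0.5 added to each count, and dotted lines mark 2-fold. The adaptor genes Tyrobp and Fcer1g lie to the right in both libraries, and the interferon genes Isg15, Ifit1, Ifit3 and Ifi27l2a lie to the left.

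Within the wider set, cells varied widely in their levels of the granzyme cluster, and they were split on whether they held a Gzmd UMI. Gzmd-positive cells numbered 14 of 19 in control and 21 of 47 in PKCi, and were deeper (medians of 19746 and 14518 UMIs, against 7148 and 7422 in Gzmd-negative cells), so depth moved with the split and its part was not tested. This split is a range of one gene, not a cell type, and was chosen after the values were seen. Of 4053 genes 93 (2.29%) were higher and 129 (3.18%) lower by 2-fold or more in Gzmd-positive cells of both libraries.

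Some granule genes went with Gzmd: of 19 tested, 7 were higher (Gzmb, Gzmc, Gzme, Gzmf, Gzmg, Prf1, Serpinb9b) and 1 lower (Stx11). Gzme, Gzmf and Gzmg are close copies of Gzmd among which reads may be split. Their rise may thus be built into the split in part, which was not tested. Prf1 was at 1704 CPM in positive and 570.1 CPM in negative cells of the control library, and at 909.9 and 354 CPM in the PKCi library. Gzmb was at 5311 and 228 CPM in control and 2103 and 776 CPM in PKCi. Within the positive cells Prf1 and Gzmb were thus lower in the PKCi library, as they were over all cells, whereas among the negative cells Gzmb was higher. Gzma was not part of this group, at 1979.7 and 4276 CPM in control and 1747 and 2965 CPM in PKCi. Cd55, a complement regulator, and Ifitm1 were higher in positive cells, with log2 ratios of 3.88 and 2.63 and of 3.01 and 4.46.

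Several secreted factors and a minority of the migration genes went the other way. Ccl5, Ccl4, Xcl1, Ifng and Ltb were lower in Gzmd-positive cells, 5 of 8 secreted factors tested. Ccl5 was at 58.2 CPM in positive and 2566 CPM in negative control cells, and at 131 and 917 CPM in PKCi cells. Of its 90 UMIs in negative control cells, 55 came from 1 cell. Xcl1 was at 49.0 and 513 CPM in control and 240.4 and 859 CPM in PKCi, so that it was higher in the PKCi library within both kinds of cell. Of 19 migration and adhesion genes 6 were lower, among them the chemokine receptor gene Cxcr4 (log2 -6.16 and -2.37), and of 13 cytokine receptor genes 4 were lower, among them Il18r1 (-4.89 and -1.75). Tyrobp (-0.05 and 0.27) and Il2rb (0.12 and -0.10) did not differ by 2-fold. The negative control cells were only 5, with 35079 UMIs.

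**Figure D5:**
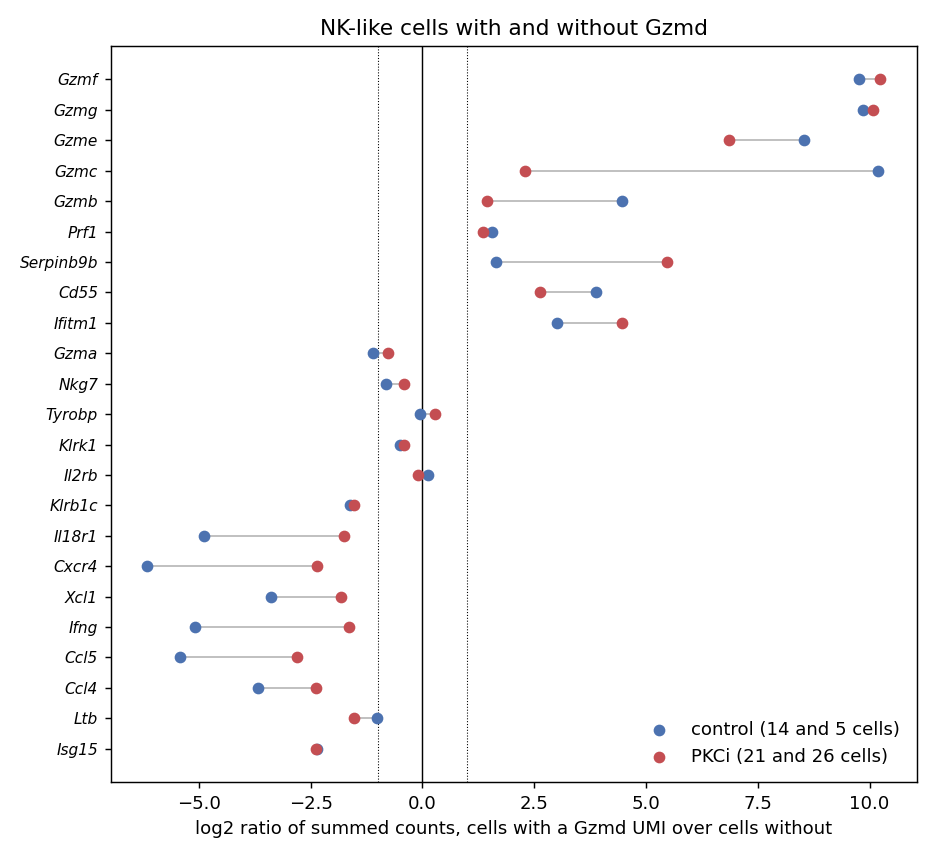
log2 ratio of summed counts in cells of the wider set with a Gzmd UMI over those without, by library, for 23 genes; 0.5 was added to each count and dotted lines mark 2-fold. Granzyme cluster genes and Prf1 lie to the right of the 2-fold line and Ccl5, Ccl4, Xcl1 and Ifng to the left of it in both libraries, while Nkg7, Tyrobp, Klrk1 and Il2rb lie within 2-fold.

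Markers of other cells in the NK-like sets were few but not equal between libraries. Over 6 carcinoma markers the NK-like cells held 6 UMIs in 2 of 7 control cells and 63 UMIs in 21 of 38 PKCi cells, and the wider set 32 and 76 UMIs (88.5 and 142 CPM). Over 8 macrophage markers they held 2 and 43 UMIs, 15 of them in 1 PKCi cell, and over 7 neutrophil markers 4 and 0. Over 7 markers of type 3 innate lymphoid cells they held 0 and 4 UMIs, with Il22 and Il17a at 0. Over 13 T cell markers they held 56 and 226 UMIs, of which 54 and 210 were of Trbc1. The wider set, formed without a limit on Trbc2, held 303 and 316 UMIs of these 13 (838 and 591 CPM). Of them 91 and 47 were of Trbc2. The part of these RNAs in the differences between libraries was not tested.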

How the data were processed

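Droplet 3′ RNA counts of 2 libraries (10x v3.1 chemistry, 1 per treatment) were used. The deposited values are UMI counts, 1 whole number for each gene in each barcode. Per the file headers Cell Ranger 7.0.0 wrote them, and the submitters' processing notes add GRCm38 and Seurat. No normalization was applied in those counts, and 32285 genes are listed. The control and PKCi libraries hold 222641855 and 229219749 UMIs in 6688 and 7457 barcodes, with medians of 33217 and 29763 in the 6380 and 7210 that passed, and 0 columns of other samples were found.

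Members were chosen by the rule, and the rule and all gene lists were chosen with earlier results of these data known. UMIs were summed over cells per library and divided by the sum's total (CPM). With 1 library per treatment no test was run: sums carry exact Poisson and shares exact Clopper-Pearson 95% intervals, and ratios exact conditional intervals, all for counting error only. Genes needed at least 30 UMIs and a 2-fold ratio to be counted, and the steps were tested on simulated data. Named genes were, per list, those with most UMIs (up to 6), its defining members and those beyond 2-fold, and from all genes the 12 highest and 12 lowest ratios, without mitochondrial, ribosomal, immunoglobulin, T cell receptor and unnamed genes. Genes of other lists of calls named in the text were chosen after their values were seen. Shares of cells were also taken after thinning to 3000 UMIs. Doublets were called with Scrublet at an expected rate of 6%. Its calls were left out of the NK-like set, the wider set and the T cells of 4 genes. The T cells defined with Trbc2 as well kept 5 control and 11 PKCi calls. Near-identical Klra and Gzm genes were counted as deposited. Alternatives changed the marker minimum, T cell limit, mitochondrial limit, doublets, Krt8, UMI minimum and scaling; those on the NK-like and wider sets and on single cells were added after seeing the data. Promoters came from RefSeq on GRCm38.p6, and 7 of 7 genes sought matched. Tools were python 3.11.15, numpy 2.4.6, scipy 1.17.1, pandas 2.3.3, scanpy 1.11.5, anndata 0.12.19 and matplotlib 3.10.9.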

Additional observations from a re-analysis of the deposited data

Results flagged for a closer look

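Among the listed genes that differed by 2-fold or more in the wider NK-like set, 7 had a PKCi/control ratio on the other side of 1 in T cells, with 95% counting intervals that left out 1 in both. The genes were picked because their ratios lay on opposite sides. The share of all genes with such ratios is not given here, so the count of 7 is a description only. The difference between these ratios was not tested. Cd160, an activating receptor gene, had a ratio of 5.24 in the wider NK-like set (2.58 as a mean over cells). In T cells its ratio was 0.205 (0.0679 to 0.520), at 49.9 and 10.2 CPM. Klra8 had ratios of 2.41 and 0.241, and Cd69 of 0.475 (0.822 as a mean over cells) and 1.4. The integrin genes Itga1 and Itgb7 had ratios of 0.315 and 2.55 in the wider set, against 3.19 (1.04 to 13.0) and 0.613 in T cells. Itga1 was low there, at 9.07 and 28.9 CPM. Il21r had 2.18 against 0.655. Cxcl2 had 2.77 against 0.268, with 69.4% of its PKCi UMIs in 1 cell of the wider set.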

How the results depend on the processing

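No paired analysis was possible because each treatment has 1 library and the labels carry no replicate numbers, so no replicate could be left out either. The main values here are those over all 86 members. The log2 ratio of the members' share, 1.19, became 2.37 without members with 5 or more Krt8 UMIs and 2.26 in the NK-like cells, and kept its direction in every other setting tried (0.91 to 1.26). Genes at least 2-fold higher and lower in PKCi members, 302 and 197, became 636 and 602 with a minimum of 3 marker UMIs, 566 and 130 without Krt8-rich members, 181 and 99 in the wider set, 146 and 105 there without the control cell of most UMIs, 504 and 628 with means over cells, 151 and 83 with at least 60 UMIs and 2752 and 1894 with at least 1. In the NK-like cells 95 were lower. Genes 2-fold higher than in T cells, 251, became 41 with 3 marker UMIs, 153 without Krt8-rich members, 867 with means over cells, 731 with at least 1 UMI and 109 for NK-like cells against T cells of 4 genes.

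The log2 ratios of 13 genes changed sign, 29 values in all, and 381 other values of genes moved and 612 did not. Without the deepest control cell the NK-like ratios turned to 2.03 for Avil, -0.11 for Ccl4, 1.74 for Gzme, 8.26 for Gzmf and 6.10 for Gzmg. The sizes for Gzmf and Gzmg rest on control sums near 0 and are not measured folds. Without the top cell of the gene in each library Gzme was at 2.63, Gzmf at 6.37, Gzmg at 4.67, Cd55 at 0.77 and Fcrl6 at 1.32. Gzma turned to -0.20 in the wider set without its deepest control cell and -0.24 as a mean over its cells. Gzmc turned to -0.34 without Krt8-rich members, and to -0.63, -0.64 and -0.69 in the wider set, in that set without the deepest control cell and as its mean over cells. In the same 3 settings Fbxo47 was at 1.02, 0.82 and 0.22 and Tmsb15a at -0.65, -0.85 and -0.15. Sele and Wincr1 were at -0.66 each without Krt8-rich members, -0.28 each in NK-like cells and -1.03 each without the deepest of these, and Wincr1 at -0.56 with 3 marker UMIs. A count of 0.5 was added to each sum before these ratios were taken. In NK-like cells Sele and Wincr1, and in the wider set Fbxo47, had sums near 0. There the added count set the values, which give no direction. For the settings that leave out cells the sums hold fewer cells, and otherwise the cause was not tested. Depth limits genes under 30 UMIs, which were not counted as higher or lower, and some ratios given for T cells and for smaller sets rest on fewer. The 7 control NK-like cells limit every ratio within them.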
